A study of Mus musculus with 5 samples.

Results

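ChIP-Seq peaks of RING1B, the ubiquitin ligase of Polycomb Repressive Complex 1 (PRC1), were examined in mouse embryonic fibroblasts (MEFs) at 44 genes for developmental zinc-finger transcription factors. The genes are a chosen list of developmental regulators, named without a threshold on these data, and do not include every gene of each family. They cover the ZIC, GLI, GLIS, SALL, OSR, PRDM, FEZF, INSM, GFI, SP, SNAI, OVOL and BCL11 families, 4 nuclear receptors and Wt1, out of 22351 genes compared on the autosomes and the X chromosome. A gene was said to have a peak when a peak overlapped its body or lay within 5000 bases of its start (mm9). The MEFs came from a mouse embryo with floxed EED alleles. 3 libraries were compared: the parental EED floxed cells (control), the same line transduced by lentivirus to express human EZHIP, and the same line transduced to express H3.3 K27M. The control and both transduced lines therefore all carry floxed EED. An H3.3 K27R line and a clonal EED deletion line were also profiled and were not analysed here. Each group had 1 library and its list held positions alone. Read depth is therefore unknown, no replicate error can be given and no test was made. What differs between lists differs between 3 libraries and their peak calls, and the effect of a transgene and of sequencing depth cannot be told apart.

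PRC2 methylates histone H3 at lysine 27 (H3K27me3), and PRC1 complexes that carry a CBX subunit bind this mark. Both EZHIP, found in childhood ependymomas of the posterior fossa, and H3.3 K27M, the mutant histone of diffuse midline gliomas, inhibit PRC2. Genes for transcription factors of other lineages are classical Polycomb targets in fibroblasts, where they are silent and have CpG-rich starts. Zinc-finger factors bind DNA through small domains folded around a zinc ion, and the families examined here pattern the neural tube, limb, kidney, blood, germ line and mesenchyme. The comparison asks at which of these genes RING1B was called in control MEFs, and where it was called when PRC2 was inhibited.

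The sequence just before the gene start is shown for 6 genes that stand for the outcomes described below. Zic1 and Zic4 lay under the widest control peak of any gene in the list and had peaks in all 3 lists. Nr2f1 and Sp5 had the widest control peaks among genes with a peak in the control alone. Besides its control peak, Wt1 had one with H3.3 K27M and Osr2 one with EZHIP; these latter 2 were chosen for display after their values were seen. Each sequence spans the 250 bases that precede the start in NCBIM37 (mm9), 5′ to 3′ on the strand of the gene, with CpG dinucleotides in capitals. The windows are chr9:91260649-91260898 (minus strand) for Zic1, chr9:91257001-91257250 (plus) for Zic4, chr13:78339019-78339268 (minus) for Nr2f1, chr2:70312730-70312979 (plus) for Sp5, chr2:104966436-104966685 (plus) for Wt1 and chr15:35225603-35225852 (plus) for Osr2. The Zic1 and Zic4 windows each lie within the body of the other gene, outside annotated exons, the Nr2f1 window overlaps exons of the noncoding genes A830082K12Rik and Gm8327, and the Wt1 window overlaps an exon of AI314831. No annotated exon overlaps the other windows.
Zic1: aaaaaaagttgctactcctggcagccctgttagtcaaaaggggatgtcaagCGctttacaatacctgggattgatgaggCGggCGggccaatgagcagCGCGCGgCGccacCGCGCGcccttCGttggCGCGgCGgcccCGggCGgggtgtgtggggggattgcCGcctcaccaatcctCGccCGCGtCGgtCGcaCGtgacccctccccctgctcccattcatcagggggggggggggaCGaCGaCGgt
Zic4: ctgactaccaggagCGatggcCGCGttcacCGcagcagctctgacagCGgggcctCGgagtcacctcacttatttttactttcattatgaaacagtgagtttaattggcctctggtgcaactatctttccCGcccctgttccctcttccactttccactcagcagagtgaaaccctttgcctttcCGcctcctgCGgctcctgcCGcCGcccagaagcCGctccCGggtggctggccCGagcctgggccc
Nr2f1: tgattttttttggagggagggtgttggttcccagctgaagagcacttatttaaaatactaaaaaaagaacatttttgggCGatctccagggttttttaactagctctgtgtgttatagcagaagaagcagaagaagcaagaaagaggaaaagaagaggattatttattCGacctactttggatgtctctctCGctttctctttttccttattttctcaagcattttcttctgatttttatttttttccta
Sp5: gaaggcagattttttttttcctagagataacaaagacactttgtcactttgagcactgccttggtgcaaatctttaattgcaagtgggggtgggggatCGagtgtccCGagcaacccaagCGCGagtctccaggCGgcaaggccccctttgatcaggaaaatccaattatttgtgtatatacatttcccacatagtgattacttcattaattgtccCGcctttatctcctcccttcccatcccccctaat
Wt1: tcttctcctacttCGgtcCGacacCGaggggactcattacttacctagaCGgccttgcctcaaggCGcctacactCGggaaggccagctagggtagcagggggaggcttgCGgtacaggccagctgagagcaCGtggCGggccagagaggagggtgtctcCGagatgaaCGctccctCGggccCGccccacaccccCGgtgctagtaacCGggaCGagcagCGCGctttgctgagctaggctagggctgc
Osr2: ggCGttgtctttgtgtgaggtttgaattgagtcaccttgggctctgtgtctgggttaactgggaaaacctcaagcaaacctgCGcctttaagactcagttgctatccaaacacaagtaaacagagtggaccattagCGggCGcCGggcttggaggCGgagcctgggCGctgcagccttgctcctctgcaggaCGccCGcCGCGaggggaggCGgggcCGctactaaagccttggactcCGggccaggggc
These windows held 26 CpG dinucleotides for Zic1, 14 for Zic4, 3 for Nr2f1, 6 for Sp5, 18 for Wt1 and 14 for Osr2. The 2 lowest counts were those of Nr2f1 and Sp5, but this order did not hold over 1000 bases around the start. There the ratio of observed to expected CpG was 0.924 for Nr2f1, 0.736 for Osr2, 0.720 for Sp5, 0.719 for Zic1, 0.701 for Zic4 and 0.657 for Wt1, and all 6 starts had an island-like window, as defined below. Each window lay inside a control peak over its full length. The Zic1 and Zic4 windows also lay inside a peak of both transduced lines, that of Wt1 inside an H3.3 K27M peak and that of Osr2 inside an EZHIP peak.

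RING1B peaks were called at 27 of the 44 genes in the control list (61.4%, 95% Wilson interval 46.6 to 74.3%), against 3.81% of all genes compared. In the H3.3 K27M list 21 genes had a peak (47.7%, interval 33.8 to 62.1%), against 1.21% of all genes. The EZHIP list had a peak at 15 (34.1%, interval 21.9 to 48.9%), against 1.32% of all genes. Peaks in all 3 lists were found at 13 genes (29.5%, interval 18.2 to 44.2%), against 0.770% of all genes, and 4 genes had a peak in the control list alone (9.09%), against 2.37%. This last count depended on the peaks used, and was 2 with equal numbers of the widest peaks in every list and 6 with peaks of at least 1000 bases. No gene of the 44 had an EZHIP or H3.3 K27M peak without a control peak, a pattern seen at 47 of all genes compared (0.210%). The 44 genes thus carried peaks far above the share of all genes in each list. Intervals cover counting error alone, and genes that share a peak are not independent. Zic1 with Zic4 and Zic2 with Zic5 each share 1 control peak, and counting each such pair once gave 25 genes with a control, 13 with an EZHIP and 19 with an H3.3 K27M peak.

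**Figure D1:**
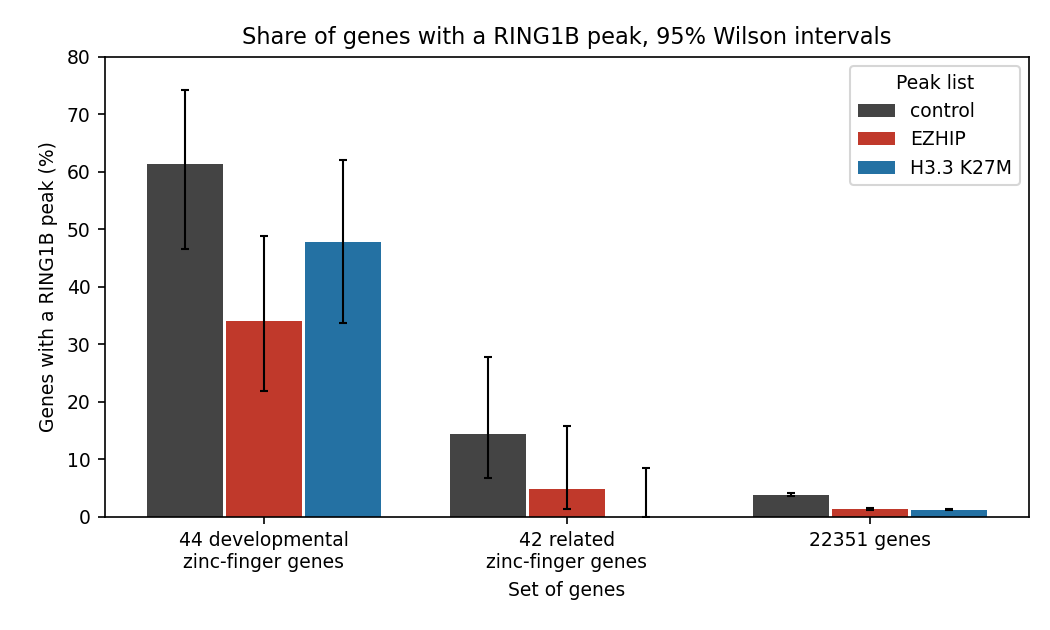
The bars show the percentage of genes with a RING1B peak (vertical axis) in 3 sets of genes (horizontal axis), with 1 bar per peak list and 95% Wilson intervals as error bars. In the 44 developmental zinc-finger genes the control bar stands at 61.4%, H3.3 K27M at 47.7% and EZHIP at 34.1%, whereas all 22351 genes stand at 3.81% or less.

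Of the 27 genes with a control peak, 21 had an H3.3 K27M peak (77.8%, interval 59.2 to 89.4%) and 15 an EZHIP peak (55.6%, interval 37.3 to 72.4%). Among all genes with a control peak these shares were 28.6% and 29.3%, respectively. 8 of the 27 had an H3.3 K27M but no EZHIP peak (29.6%, interval 15.9 to 48.5%), and 2 had an EZHIP but no H3.3 K27M peak (7.41%, interval 2.06 to 23.4%). The control peak stood alone at 4 of the 27 (14.8%, interval 5.92 to 32.5%; 2 or 6 genes under those other choices of peaks), against 62.2% of all genes with a control peak, and 13 of the 27 had all 3, against 20.2%. For peaks in a single transduced line, the shares over all genes with a control peak were 8.45% with H3.3 K27M and 9.15% with EZHIP. The zinc-finger genes that had a peak in a single transduced line thus leaned to H3.3 K27M, whereas all genes were divided about evenly. Whether this imbalance exceeds the spread between libraries was not tested, because each line had 1 library.

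**Figure D2:**
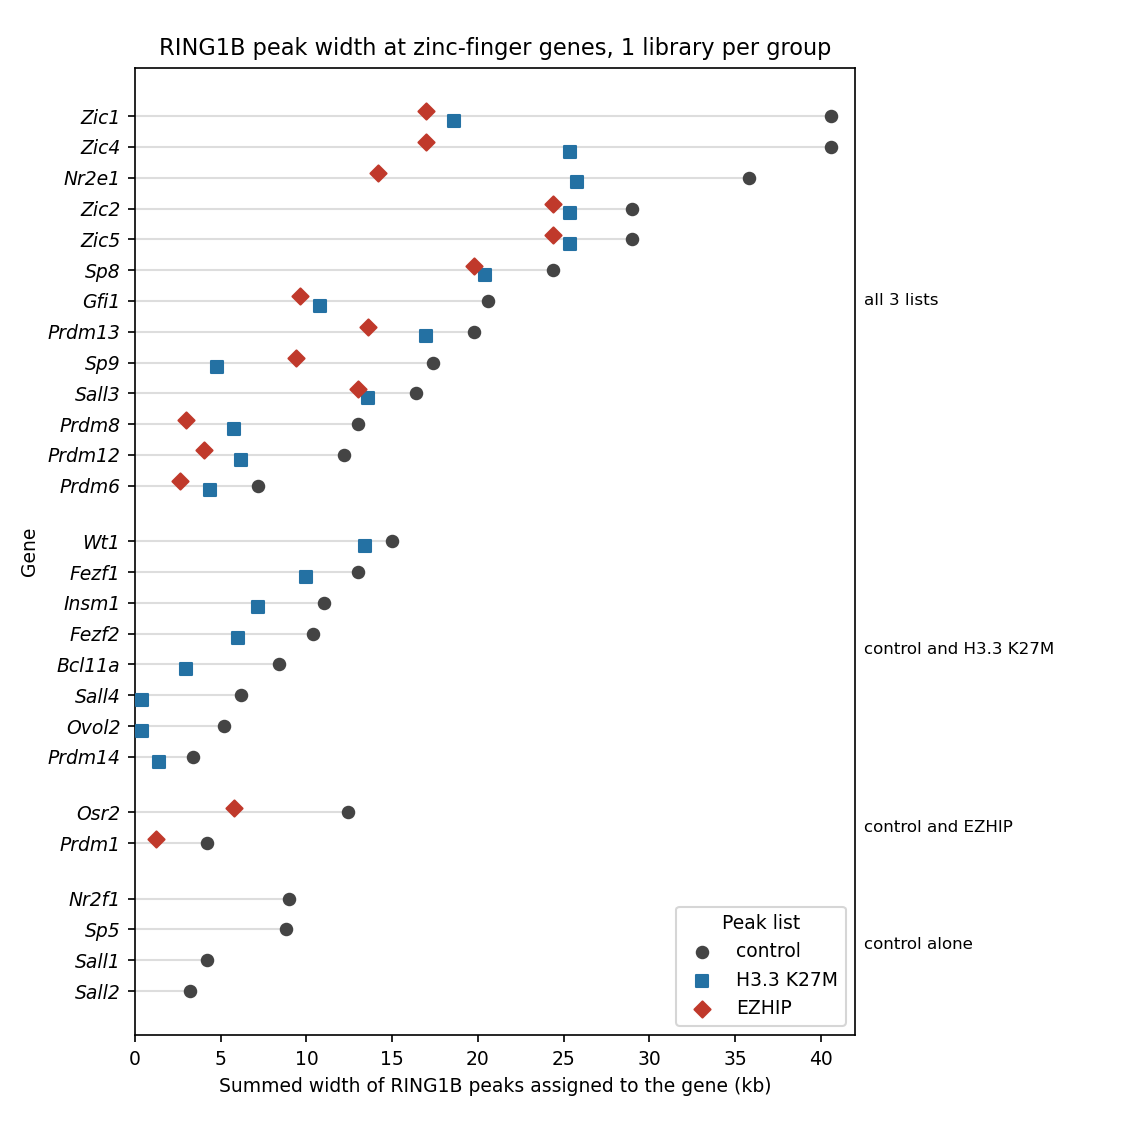
Each row is 1 of the 27 genes with a control peak, and the horizontal axis gives the summed width in kb of the RING1B peaks assigned to it, as a circle for control, a square for H3.3 K27M and a diamond for EZHIP. Rows are grouped by the lists that held a peak, and in each row with a transduced line its marker lies to the left of the control marker.

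The ZIC genes, which act in the neural tube, cerebellum and neural crest, had a peak in all 3 lists at the 4 genes of the list. Zic1 and Zic4 are transcribed in opposite directions from overlapping bodies and lay under a single control peak of 40599 bases at chr9:91244801-91285399. The EZHIP peak there spanned 16999 bases, from 91244001 to 91260999, and the H3.3 K27M list had peaks of 18599 bases, from 91245401 to 91263999, and of 6799 bases, from 91275401 to 91282199. Both transduced lines therefore had a peak over the Zic1 body and both gene starts, while coverage was lacking over much of the Zic4 body. The EZHIP peak reached 0.80 kb beyond the control peak on the far side of Zic1, the one case among these genes in which a transduced line extended past the control. Zic2, mutated in human holoprosencephaly, and Zic5 shared a control peak of 28999 bases at chr14:122863001-122891999. It measured 24399 bases with EZHIP and 25399 bases with H3.3 K27M, which is 0.841 and 0.876 times the control width. The start of Zic5 was inside the control and H3.3 K27M peaks and 0.702 kb outside the EZHIP peak.

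The SALL genes, homologues of Drosophila spalt with roles in kidney, limb and pluripotent cells, had a control peak at 4 of 4 genes, an H3.3 K27M peak at 2 and an EZHIP peak at 1. Sall3 had 16399 bases under peaks in the control, 12999 with EZHIP and 13599 with H3.3 K27M. Sall4, a factor of embryonic stem cells and germ cells, had 6199 bases in the control and a single peak of 399 bases in the H3.3 K27M list. Sall1, required for kidney outgrowth, had 4199 bases and Sall2 had 3199 bases in the control list, and neither transduced line had a peak at them. Within this family the gene with the widest control peak was the one with peaks in both transduced lines.

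The PRDM genes pair zinc fingers with a SET-like domain, and 6 of the 7 in the list had a control peak. Of 8 further PRDM genes outside it, 1, Mecom, had one. Prdm13, which specifies inhibitory neurons in the spinal cord and retina, had 19799 bases in the control, 13599 in the EZHIP and 16999 in the H3.3 K27M list. Prdm8, a neural repressor, had 12999 bases in the control, 2999 in the EZHIP and 5799 in the H3.3 K27M list. Prdm12, needed for pain-sensing neurons, had 2 control peaks with a summed width of 12198 bases, 3999 bases with EZHIP and 6199 with H3.3 K27M. At Prdm12 the peak at the start was present in each list, and the second control peak of 1599 bases, 12.6 kb downstream, had no counterpart. Prdm6, a smooth muscle factor, had 7199 bases in the control, 2599 in the EZHIP and 4399 in the H3.3 K27M list. These 4 genes showed the same order of widths, with EZHIP narrowest and control widest.

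Prdm14 and Prdm1 each had a peak in a single transduced line. Prdm14, a regulator of germ cells and pluripotency, had 3399 bases in the control, 1399 in the H3.3 K27M and no peak in the EZHIP list. Prdm1, also called Blimp1, which acts in plasma cells and germ cell precursors, had a control peak of 2399 bases at its start and another of 1799 bases within the gene body, 69.5 kb downstream of the start. The EZHIP list held a peak of 1199 bases at the internal site and none at the start, and the H3.3 K27M list held neither. Without the gene body, Prdm1 would count as a gene with a control peak alone. Prdm16, a factor of brown fat and blood stem cells, had no peak in any list.

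The SP genes, which act downstream of WNT and FGF signals, had a control peak at the 3 genes of the list, Sp5, Sp8 and Sp9. Of 6 further SP genes outside it, 1, Sp6, had one. Sp8, required for limb outgrowth, had 24399 bases in the control, 19799 in the EZHIP and 20399 in the H3.3 K27M list. Sp9 had 17399 bases in the control, 9399 in the EZHIP and 4799 in the H3.3 K27M list. Among the 13 genes with peaks in all 3 lists, Sp9 was the one at which the H3.3 K27M width was below that of EZHIP. Sp5, a WNT target gene, had 8799 bases at chr2:70308401-70317199 in the control and no peak in either transduced line.

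Genes of neuronal and neuroendocrine fate came next. Nr2e1, the orphan receptor Tailless that maintains neural stem cells, had a control peak of 35799 bases at chr10:42283001-42318799, which also held the start of Ostm1. The H3.3 K27M peak there spanned 25799 bases, and the EZHIP list split the domain into peaks of 12799 bases over the start and 1399 bases within the gene. Fezf1 had 12999 bases in the control and 9999 in the H3.3 K27M list, and Fezf2, which specifies corticospinal neurons, had 10399 and 5999 bases. Insm1, a driver of neuroendocrine differentiation, had 10999 bases in the control and 7199 in the H3.3 K27M list. These 3 genes had no EZHIP peak, and the nearest EZHIP peak lay 861 kb from the start of Insm1 and farther from the others.

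Of the blood and lymphoid regulators, Gfi1, a repressor in blood stem cells and neutrophil precursors, had 20599 bases in the control, 9599 in the EZHIP and 10799 in the H3.3 K27M list. Bcl11a, a repressor in erythroid and lymphoid cells, had 8399 bases in the control and 2999 in the H3.3 K27M list. Gfi1b and Bcl11b had no peak in any list. In each of these pairs of paralogues, 1 gene had a RING1B peak and the other did not.

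Regulators of kidney, palate, epithelium and neural crest completed the list. Wt1, the Wilms tumour suppressor of kidney and gonad, had 14999 bases in the control and 13399 in the H3.3 K27M list, 0.893 times the control width, and no EZHIP peak within 550 kb of its start. Osr2, which acts in palate and tooth, had 12399 bases in the control and 5799 in the EZHIP list, and its nearest H3.3 K27M peak lay 39.7 Mb away. Ovol2, a keeper of epithelial identity, had 5199 bases in the control and a peak of 399 bases in the H3.3 K27M list, 1.12 kb upstream of its start. Nr2f1, also called COUP-TFI, had 8999 bases at chr13:78334801-78343799 in the control and no peak in either transduced line. The Wt1 control peak was wider than those of Osr2, Prdm8, Prdm12 and Prdm6, each of which had an EZHIP peak, so control width alone did not order the EZHIP calls.

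The 17 genes without a peak in any list were Gli1, Gli2, Gli3, Glis1, Glis2, Glis3, Osr1, Prdm16, Insm2, Gfi1b, Snai1, Snai2, Snai3, Ovol1, Bcl11b, Nr2f2 and Nr4a2. They include the GLI genes, the transcriptional effectors of hedgehog signalling, and the SNAI genes, which repress E-cadherin in mesenchymal cells, at 0 of 3 genes in each family. Expression is not part of the files analysed, so whether these genes were transcribed in the MEFs was not tested. Of 16 genes that fibroblasts transcribe, Col1a1, Fn1 and Vim among them, 15 had no peak in any list (93.8%), but so did 96.0% of all genes, so this does not check the labelled cell type. The exception was Pdgfra, with 5399 bases in the control and 599 with EZHIP. Absence of a peak at this unknown depth does not show absence of RING1B.

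Related zinc-finger genes outside the list, such as the KLF and EGR genes and further SP, PRDM and nuclear receptor genes, gave smaller shares. Of 42 such genes, 6 had a control peak (14.3%, interval 6.72 to 27.8%), against 3.81% of all genes. An EZHIP peak was found at 2 (4.76%, interval 1.32 to 15.8%), against 1.32%, and an H3.3 K27M peak at 0 (interval 0 to 8.38%), against 1.21%. The 6 were Mecom with 8799 bases, Sp6 with 7999, Nr4a3 and Egr3 with 3799 each, Egr2 with 3599 and Scrt1 with 1399. Mecom and Sp6 had EZHIP peaks of 1199 and 2599 bases. With intervals this wide, no order of the transduced lines can be read from these genes.

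Peaks at the developmental zinc-finger genes were wide in the control list. The median width per gene was 12.4 kb (quartiles 7.80 and 20.2 kb, range 3.20 to 40.6 kb, n = 27 genes), against 4.0 kb for all 852 genes with a control peak. In total, 27 control peaks were assigned to the 44 genes, 3.29% of the control peaks and 6.37% of the bases they covered. The genes with an EZHIP peak had a median control width of 19.8 kb, and those without had 8.60 kb. For H3.3 K27M these medians were 15.0 and 6.50 kb. Among genes with at least 10000 bases in the control, the share with a peak was 16 of 17 for H3.3 K27M (94.1%, interval 73.0 to 99.0%) and 13 of 17 for EZHIP (76.5%, interval 52.7 to 90.4%). All genes of that control width gave 71.4% and 67.4% (n = 224), respectively. From 5000 to under 10000 bases, the H3.3 K27M list had a peak at 4 of 6 zinc-finger genes and the EZHIP list at 1 of 6, against 37.0% and 31.1% of all 135 such genes. At a like control width, the EZHIP shares therefore lay closer to those of all genes than the H3.3 K27M shares did, with intervals that overlapped.

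Widths were smaller in the transduced lines at every zinc-finger gene with both peaks. EZHIP peaks were narrower than control at 15 of 15 genes, with a median ratio of 0.466 (quartiles 0.379 and 0.740, range 0.231 to 0.841). H3.3 K27M peaks were narrower at 21 of 21 genes, with a median ratio of 0.611 (quartiles 0.446 and 0.829, range 0.0644 to 0.893). Of all genes with both peaks, 91.2% were narrower in the EZHIP list (n = 250) and 90.6% in the H3.3 K27M list (n = 244), with median ratios of 0.411 and 0.642. Narrowing at these genes was thus of the same order as at all genes. Of the 13 genes with peaks in all 3 lists, the EZHIP width was below that of H3.3 K27M at 12, with a median ratio of 0.889, against a median of 0.786 over 172 genes. Of all 197 genes with peaks in both transduced lines, 65.0% were narrower with EZHIP, 46 were wider and 23 were equal. The comparisons share the control library, so the ratios to it are not independent of each other.

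**Figure D3:**
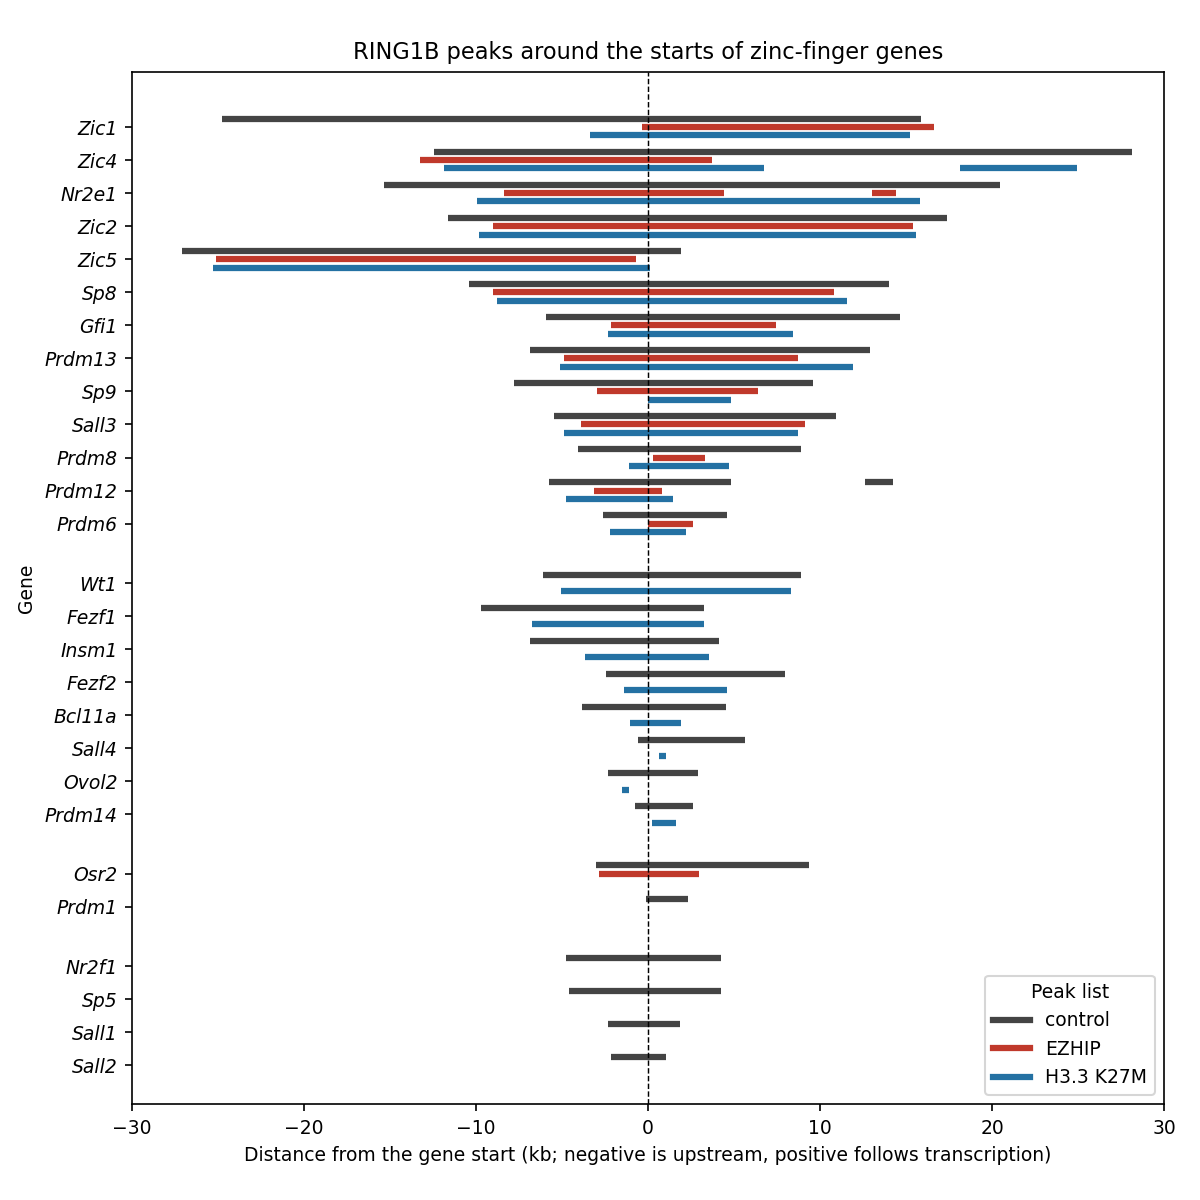
RING1B peaks are drawn as bars around each gene start (dashed line at 0), with distance in kb on the horizontal axis and 1 row per gene, in the direction of transcription, for the control, EZHIP and H3.3 K27M lists. Control bars cross the start in all 27 rows, and the bars of the transduced lines mostly lie inside the control bars. The peaks within the Prdm1 body, 69.5 kb and more downstream, are outside the plotted range.

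The starts of all 27 genes with a control peak lay inside such a peak, compared with 74.2% of all genes with a control peak and 2.83% of all genes compared. The start was inside the peak for 17 of 21 genes in the H3.3 K27M list, against 61.6% of all genes with such a peak and 0.747% of all genes compared. In the EZHIP list this was so for 11 of 15 genes, against 45.4% and 0.600%, respectively. The 4 exceptions for EZHIP were Zic5, Prdm1, Prdm6 and Prdm8, and the 4 for H3.3 K27M were Sall4, Prdm14, Sp9 and Ovol2. At Prdm6 the EZHIP peak began 1 base after the start, and at Sp9 the H3.3 K27M peak began 0.019 kb after it, both less than the 200-base bins of the lists. The outermost edges mostly lay inward of the control edges on both sides. Relative to the control, the EZHIP edge lay a median of 2.60 kb closer on the upstream side and 3.20 kb closer on the downstream side, and both edges were inside the control edges at 13 of 15 genes. For H3.3 K27M the medians were 1.80 and 2.40 kb, and both edges were inside at 20 of 21 genes. Fezf1 was the exception, where the downstream edges of the control and H3.3 K27M peaks coincided. Edges are the outermost of all peaks assigned to a gene, so a lost peak also counts as an inward move. For EZHIP, the upstream edge of Prdm1 moved by 70 kb because its start peak was absent. Without its second peak, the downstream edge of Prdm12 moved by 13.4 kb with EZHIP and 12.8 kb with H3.3 K27M. Zic1 with Zic4 and Zic2 with Zic5 share peaks but were counted separately. Matching values over all genes are not given.

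Sequence at the gene starts was also compared, because Polycomb recruitment in mammals is known to favour CpG islands. Island-like windows were 500 bases long, at least 55% G or C, and had a CpG ratio (observed over expected) of 0.65 or more. Such a window lay within 500 bases of the start at 24 of the 27 genes with a control peak (88.9%) and at 15 of the 17 without (88.2%), against 52.5% of all genes. The exceptions with a control peak were Sall2, Sall4 and Prdm1. The median G and C content over 1000 bases around the start was 55.9% for genes with and 62.5% for genes without a control peak, and the median CpG ratio was 0.693 and 0.788. The GLI, GLIS and SNAI genes, which had no peak, thus did not lack island-like starts. Among all genes with an island-like start, 6.06% had a peak in the control, 1.96% in the EZHIP and 1.81% in the H3.3 K27M list, so an island-like start goes with a higher share but leaves it well below that of the 44 genes.

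Within the control peaks of these genes, island-like bases were covered more often than the other bases. Over all 27 of their control peaks, 43.1% of the island-like and 37.7% of the other bases lay under an EZHIP peak, and 66.7% and 54.4% under an H3.3 K27M peak. Over all 821 control peaks the order was the opposite, at 19.0% and 26.0% for EZHIP and 31.9% and 39.2% for H3.3 K27M. For all control peaks, though not for those of these genes, the order depended on whether peaks without an overlap were included. In the 13 control peaks of these genes that an EZHIP peak overlapped, 72.3% of the island-like bases and 50.5% of the other bases lay under an EZHIP peak. In the 19 overlapped by an H3.3 K27M peak, the values were 79.9% and 61.2%. Over all control peaks with an overlap they were 46.9% and 42.2% for EZHIP (n = 222) and 72.0% and 57.6% for H3.3 K27M (n = 227). Peak by peak, EZHIP covered the larger share of island-like bases in 8 of 13, and H3.3 K27M did so in 16 of 19. The matching counts over all overlapped control peaks are not given, so these counts are not set apart from the background. At Gfi1 and Prdm13, 100% of the island-like bases were covered in both transduced lines, with 32.1% and 60.3% of the other bases covered by EZHIP and 39.5% and 82.1% by H3.3 K27M. Prdm8 and the Zic2 and Zic5 domain went the other way for EZHIP, with 16.0% against 24.8% and 67.2% against 88.9%. With 5 of 13 peaks in the opposite direction, the pattern was less uniform for EZHIP than the pooled bases show.

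**Figure D4:**
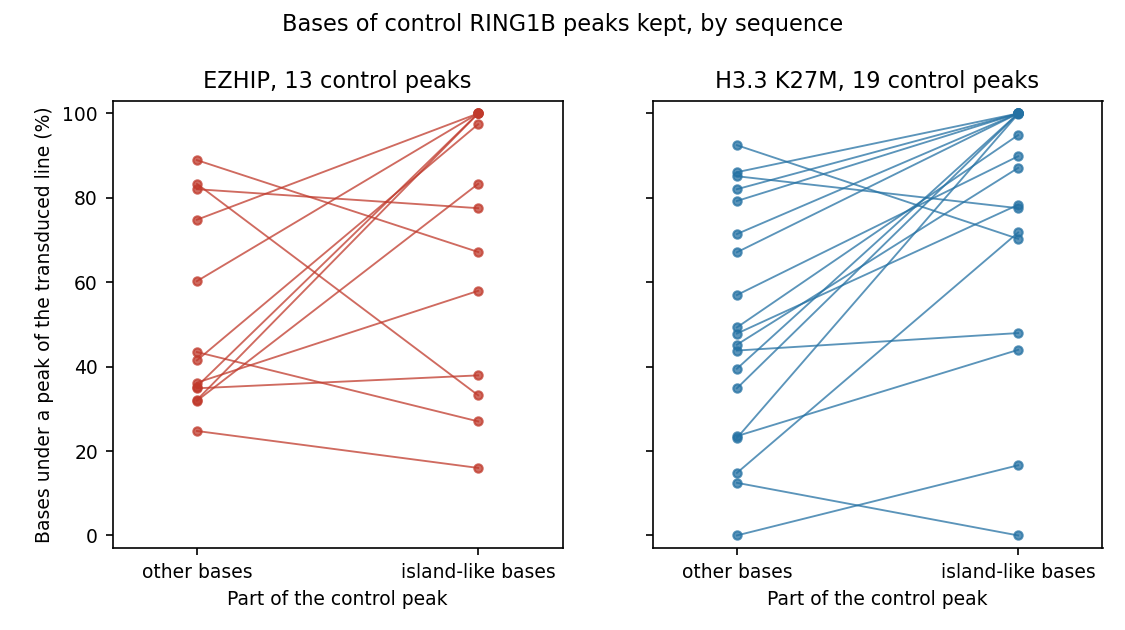
Each line is 1 control peak at these genes that a peak of the transduced line overlapped, and joins the percentage of its other bases to the percentage of its island-like bases that lay under the EZHIP (left, 13 peaks) or H3.3 K27M (right, 19 peaks) list. The island-like percentage is the higher one in 8 of 13 cases on the left and 16 of 19 on the right.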

How the data were processed

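RING1B ChIP-Seq peak lists of 3 MEF libraries (control, EZHIP and H3.3 K27M) were analysed, with groups taken from the cell type in the labels. The authors digested crosslinked chromatin with micrococcal nuclease, aligned reads to mm9 and a spike-in genome with Bowtie 1.0.0 at default settings (version per the submitters' processing notes) and called broad peaks per library with MOSAiCS-HMM. The deposited lists give 3 columns, the chromosome, start and end of each peak, with no count or score. All 1418 starts were multiples of 200 bases. Narrowest peaks were 1199 bases in the control and 399 bases in the other lists, so minimum widths differed between lists, although the methods state 1 minimum size of 1000 bases. Width is end minus start, and printed positions are 1-based.

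Gene bodies and starts came from GENCODE vM1 (NCBIM37, the assembly behind mm9), and each peak ended within its chromosome. The background is all protein-coding genes and Gfi1, whose record has another class. For Glis3, which has 2 records, the longer was used. A gene's width is the sum of its assigned peaks. Island-like windows moved by 100 bases gave 18335 islands. Python 3.11.15, numpy 2.4.6, pandas 2.3.3, scipy 1.17.1 and matplotlib 3.10.9 were used, and the assignment and island code were tested on simulated data. Every gene with a peak was to be named with its widths. Sequences were to be shown for the 2 widest genes with peaks in all lists and in the control alone, and here they stop at the gene start. The genes and lists were chosen with earlier results of these data known. Alternatives changed the gene region, the peaks used, the unit counted and the measure of width.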

Additional observations from a re-analysis of the deposited data

How the results depend on the processing

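Counts, shares and width ratios (9 in all) were computed again with 10 alternatives, those that applied to each, for 74 values. A count or ratio was taken as changed when it moved by more than 1.5 times, and a share when it left its 95% interval. Of the 74, 73 stayed within these limits, 1 moved and 0 changed direction. Some of these values could not move, because 286 is the size of the whole H3.3 K27M list and no control peak was under 1000 bases. The 6 genes with a control peak alone under the 1000-base setting, against 4, lay at the limit of 1.5 times. With equal numbers of the widest peaks in every list (286), the genes with a control peak alone numbered 2 in place of 4, because narrow control peaks are left out by construction. That setting gave 22 genes with a control peak, 15 with an EZHIP and 21 with an H3.3 K27M peak, against 1.53%, 1.24% and 1.21% of all genes. Peaks of at least 1000 bases gave 27, 15 and 19, against 3.81%, 0.94% and 1.04% of all genes, without the narrow H3.3 K27M peaks of Sall4 and Ovol2. The median width ratio ranged from 0.442 to 0.602 for EZHIP and from 0.585 to 0.668 for H3.3 K27M. No paired analysis was possible because each group has 1 library and the values come from no test. Depth is unknown, so an uncalled peak may lie below the reach of its library.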

Other observations

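Peaks beside the genes were examined out to 20 kb from each gene body, and 3 of the 44 genes had a peak there that was not assigned to them. The matching share over all genes is not given, so 3 of 44 cannot be read as high or low. At Nr2f1, whose own control peak had no counterpart, a second control peak of 13999 bases lay downstream at chr13:78309601-78323599, 4.63 kb past the end of the gene, and overlapped no annotated gene. Both transduced lines had a peak at that place with identical ends, chr13:78311401-78321199, spanning 9799 bases. The lines thus had no RING1B peak at the start of this gene and the same peak just beyond its end. Downstream of Zic4, at 15.2 kb, a control peak of 2199 bases had an EZHIP counterpart of 1399 bases and an H3.3 K27M counterpart of 599 bases. The third case, at Zic1, was the H3.3 K27M peak over Zic4 described above.

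For the 17 genes without a peak in any list, the distance to the nearest control peak was measured from the gene start. The distance ranged from 146 kb at Gli1 to 12.6 Mb at Glis2, with a median of 1.37 Mb. Matching distances over all genes without a peak are not given, so these values are not set apart from the background.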
